A study of Mus musculus with 62 samples.

Results

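In the ventral hippocampus (vHPC), 10 daily saline injections were compared with 1. The comparison used 3 chronic saline mice (10 injections, replicates 2, 3 and 6) and 3 acute saline mice (1 injection, replicates 2, 4 and 6), which is 6 of the 62 libraries of the series. All were male C57BL/6J mice of 8 to 10 weeks, each gave 1 vHPC library, and both groups were killed 4 h after the last intraperitoneal injection. These 6 mice received no ethanol, while the other vHPC groups received 2 g/kg ethanol in saline 1 or 10 times on the same schedule. The saline mice were the vehicle controls of an ethanol study, so the comparison asks what the repeated procedure (handling, injection, saline) was accompanied by without the drug. Mice that were never injected were not analysed here, and tissue was cored from frozen coronal slices, so a library holds the RNA of whatever lay under the corer.

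The ventral part of the hippocampus is tied to the amygdala and hypothalamus and is known for its part in anxiety and stress. Handling and injection are mild stressors in mice. They release corticosterone, which binds the mineralocorticoid receptor and the glucocorticoid receptor of hippocampal neurons, both of which are transcription factors, and they set off immediate early genes such as *Fos* in activated neurons. The response to a stressor that recurs in the same form often becomes smaller with repetition. Granule neurons of the dentate gyrus and pyramidal neurons of CA1, CA2 and CA3 make up most of the tissue, and the choroid plexus, the thalamus and the striatum lie close by.

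Libraries of the acute saline group held 14426328 to 14899467 counts on genes and those of the chronic saline group 11421520 to 12849309, so every library after 10 injections was shallower than every library after 1. The part of this depth difference in the results was not tested. Pearson correlations of log2 CPM between the 6 libraries ran from 0.976 to 0.989. Mitochondrial transcripts took 5.02% to 6.01% of counts after 1 injection and 4.39% to 5.32% after 10. Levels are given as CPM (read pairs of a gene scaled to library size, with TMM normalization in edgeR) and differences as log2 fold changes of 10 minus 1 injections. The standard error (SE) of an edgeR log2 fold change was derived from its test. It is the fold change without its sign over the square root of the F statistic. Genes were tested with edgeR and, as an alternative, with DESeq2, and called at a Benjamini-Hochberg adjusted p (FDR) below 0.1. In bulk tissue, fewer cells of a type and less RNA per cell cannot be told apart.

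Markers of neighbouring tissue varied widely among the libraries of each group. The 16 choroid plexus genes, led by *Ttr* (transthyretin), summed to 3823, 907 and 222 CPM after 1 injection and 126, 437 and 268 CPM after 10. All 16 were lower on average after 10 injections, with a median log2 fold change of -3.01. At an unadjusted edgeR p below 0.05, 14 of the 16 were lower, beside 5.75% of all genes tested. The groups did not overlap in 2 of them, beside 8.32% of all genes tested. Most of the median difference came from acute saline replicate 2: without it the median was -1.28. *Ttr* itself had 2075, 398 and 71.7 CPM after 1 injection and 3.35, 166 and 87 CPM after 10, so acute replicates 2 and 4 were the highest of the 6 and chronic replicate 2 the lowest. *Kcne2*, a potassium channel subunit of the choroid plexus epithelium, had 12.5, 2.77 and 0.847 CPM after 1 injection and 0.176, 0.663 and 0.475 CPM after 10, and was the member that DESeq2 called lower (0.823% of all genes). The 8 thalamic neuron genes summed to 927, 222 and 165 CPM after 1 injection and 136, 92.9 and 189.8 CPM after 10. *Tcf7l2*, a transcription factor of thalamic neurons, had 70.8, 39.6 and 20.4 CPM after 1 injection and 12.7, 6.63 and 18.3 CPM after 10, and *Prkcd*, a protein kinase C of thalamic relay neurons, had 379, 48.7 and 44 CPM after 1 injection and 23.2, 28.3 and 67.6 CPM after 10. The thalamic median was -1.65, and -0.42 without acute replicate 2. All 8 thalamic genes were lower on average, 6 of them at an unadjusted p below 0.05 (5.75% of all genes). In 2 of them (*Tcf7l2* and *Synpo2*) the groups did not overlap (8.32% of all genes). Striatal projection neuron genes summed to 484, 342 and 226 CPM after 1 injection and 178, 383 and 188 CPM after 10, and myelin genes to 9383, 7755 and 2574 CPM after 1 injection and 3594, 5970 and 3487 CPM after 10. In both of these sums the groups overlapped, and all 12 members of each list had a lower mean after 10 injections, with a myelin median of -0.55 and with 3 striatal and 0 myelin genes at an unadjusted p below 0.05. Without acute replicate 6, edgeR called 14 of 16 choroid plexus, 4 of 8 thalamic, 3 of 12 striatal and 12 of 12 myelin genes lower, beside 2.84% of all genes in that fit, and the myelin median was -0.93. Without acute replicate 2 it called 0 genes of these 4 lists, beside only 0.021% of all genes in that fit, and the myelin median was -0.21.

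Among the hippocampal subfields, the dentate sums separated the groups, and those of CA1, CA2 and CA3 overlapped. The 10 dentate granule neuron genes summed to 457, 425 and 204 CPM after 1 injection and 835, 676 and 473 CPM after 10, so all 3 libraries after 10 injections lay above all 3 after 1, with acute replicate 6 the lowest. All 10 were higher on average, 7 without overlap (8.61% of all genes), and the median was 0.87 (0.74 without acute replicate 6). *C1ql2*, a secreted synaptic organizer of granule neurons, had 35.2, 41.2 and 12.1 CPM after 1 injection and 109, 70.2 and 54.7 CPM after 10, a log2 fold change of 1.4 (SE 0.39). *Prox1*, the transcription factor that sets granule neuron identity, had 113.2, 93.1 and 39 CPM after 1 injection and 150.5, 132 and 95.9 CPM after 10, and its groups overlapped. *Lct*, *Dsp* (desmoplakin), *Tdo2*, *Trpc6*, *Glis3* and *Dock10* differed by 1.47, 1.30, 1.02, 0.69, 0.71 and 0.46 on the log2 scale. DESeq2 called 2 members higher (1.13% of all genes), *C1ql3*, with 57.8, 65 and 60.6 CPM after 1 injection and 132, 102 and 70 CPM after 10, and *Npnt*, with 19.9, 26.6 and 9.60 CPM after 1 injection and 48.4, 42.6 and 29.6 CPM after 10.

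Genes enriched in ventral rather than dorsal hippocampal neurons lay the other way. The 5 of them (*Dlk1*, *Trhr*, *Htr2c*, *Nr2f2* and *Dcn*) summed to 93.8, 108 and 120.5 CPM after 1 injection and 43.2, 27.3 and 59.2 CPM after 10, so every library after 10 injections lay below every library after 1. *Nr2f2* (COUP-TFII, ENSMUSG00000030551; chromosome 7, 70001692 to 70016483) had 37.7, 26.1 and 38.1 CPM after 1 injection and 13.3, 11.9 and 23.1 CPM after 10, a log2 fold change of -1.07 (SE 0.25). *Htr2c*, the serotonin 2C receptor, had 42.8, 42.5 and 37.4 CPM after 1 injection and 20.6, 12.4 and 28.7 CPM after 10, a log2 fold change of -0.99 (SE 0.24). Both were called lower by DESeq2, beside 0.823% of all genes. The list's median was -1.76, and -1.13 without acute replicate 6. In the dorsal hippocampus (dHPC), from libraries of another kit that does not keep the strand, the 5 genes summed to 57.6 to 63.4 CPM after 1 injection and 43.6 to 61.3 CPM after 10, scaled to library totals. On that same scale the acute vHPC libraries held 95.1 to 118 CPM and the chronic ones 27.5 to 58.1 CPM. The ventral markers were thus above the dHPC level in the acute libraries and not in the chronic ones, and vHPC is used here as the label of both. CA3 genes, on that scale, were above the dHPC level in both groups. They held 240.4 to 259.4 CPM in the acute and 198.4 to 314.9 CPM in the chronic vHPC libraries. In dHPC they held 95.15 to 163.6 CPM after 1 injection and 93.85 to 166.9 CPM after 10. Dentate and CA1 ranges of the chronic vHPC libraries overlapped those of dHPC. The kit and the region cannot be told apart in the levels across regions. CA1 genes summed to 199.8, 196 and 518 CPM after 1 injection and 569, 363 and 235 CPM after 10 and CA3 genes to 237, 255 and 249 CPM after 1 injection and 199.6, 245 and 321 CPM after 10, both with overlap. Acute replicate 6 had the most CA1 RNA of the acute libraries and the least dentate and myelin RNA. In the ethanol mice, on a scale set over all 12 vHPC libraries, dentate sums overlapped (578 to 839.6 CPM after 1 injection, 574 to 1215 CPM after 10), and choroid plexus sums ran from 194 to 3061 CPM and from 1506 to 4889 CPM. The part of choroid plexus and other non-neuronal RNA in the ventral gene sums was not tested. Nor was the part of tissue content in the gene differences given in the next paragraphs.

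**Figure D1:**
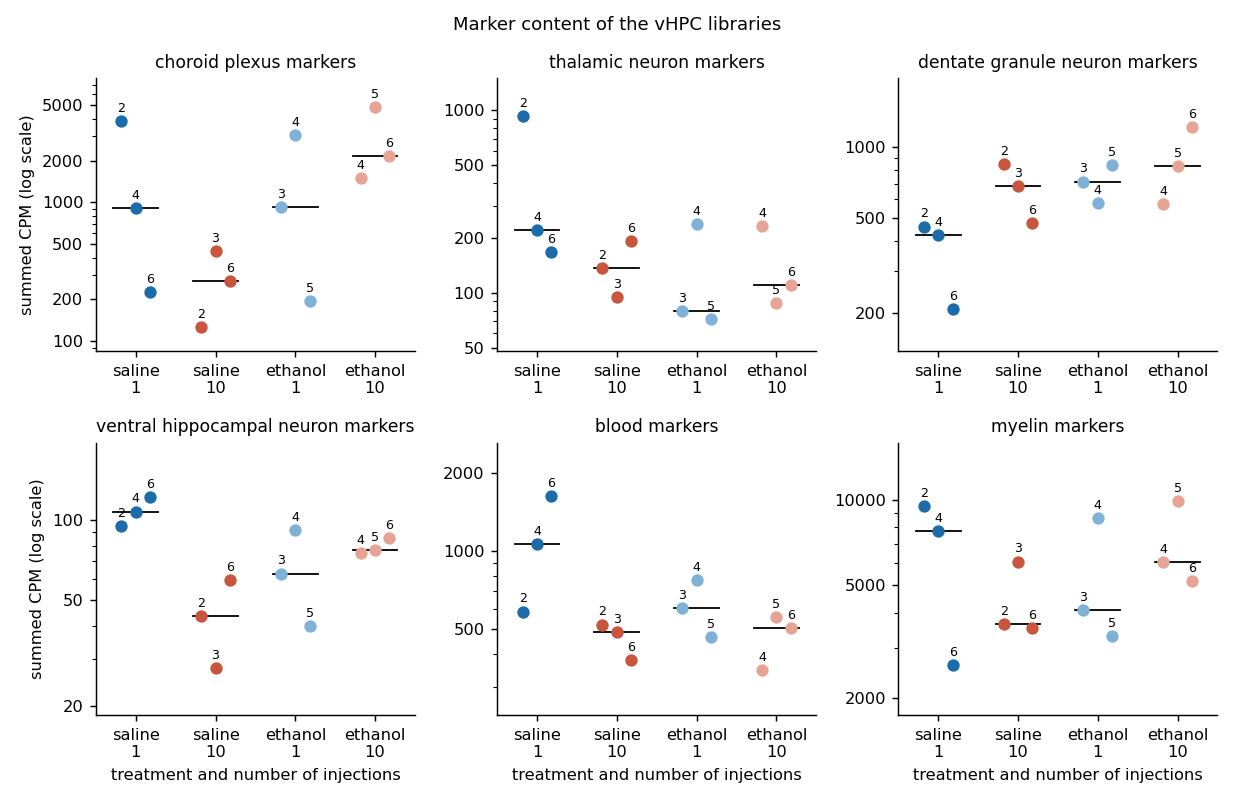
Summed CPM (log axes) of 6 marker lists in each of the 12 vHPC libraries, by treatment and number of injections, normalised over the 12 libraries. Each point is a library with its replicate number, and bars are group medians. In the saline groups the dentate and ventral hippocampal sums do not overlap, while acute saline replicate 2 stands above the rest of the saline libraries in choroid plexus and thalamic genes and acute saline replicate 6 is the highest of the 12 in blood genes.

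Across all genes, edgeR's quasi-likelihood test called 0 of 19695 genes at an FDR below 0.1 (0% of genes tested), with a smallest FDR of 0.223. At an unadjusted p below 0.05 there were 2176 genes (11.0%), 1043 higher (5.30%) and 1133 lower (5.75%) after 10 injections. DESeq2, which the study used, called 385 genes (1.95%) at the same FDR, 223 higher (1.13%) and 162 lower (0.823%). It gave 3823 of the 19695 genes no FDR. All DESeq2 shares given here are of all genes tested, so they are larger among genes that had an FDR. Groups did not overlap in 1695 genes that were higher (8.61%) and 1638 that were lower (8.32%). Of the 385 DESeq2 calls, 362 had no overlap, 47 were called in each of the 6 fits that left out 1 library, and 255 stayed calls once the dependence of each library on gene GC content and length was taken out. The genes DESeq2 called higher had a median exon GC content of 52.6% and those called lower 46.9%, against 48.9% over all genes tested.

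With the low-count filter kept, the edgeR count changed most on leaving out acute saline replicate 6. Without it edgeR called 986 of 19273 genes (5.12%), 439 higher (2.28%) and 547 lower (2.84%), and DESeq2 called 702 higher and 676 lower. Leaving out acute replicate 2 instead gave 4 edgeR calls, all of them hemoglobin genes, and 118 higher and 69 lower DESeq2 calls. With 2 libraries against 3, the fit without replicate 6 rests on fewer mice than the whole comparison, so a gene is described as called only together with the tool and the libraries that gave the call.

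**Figure D2:**
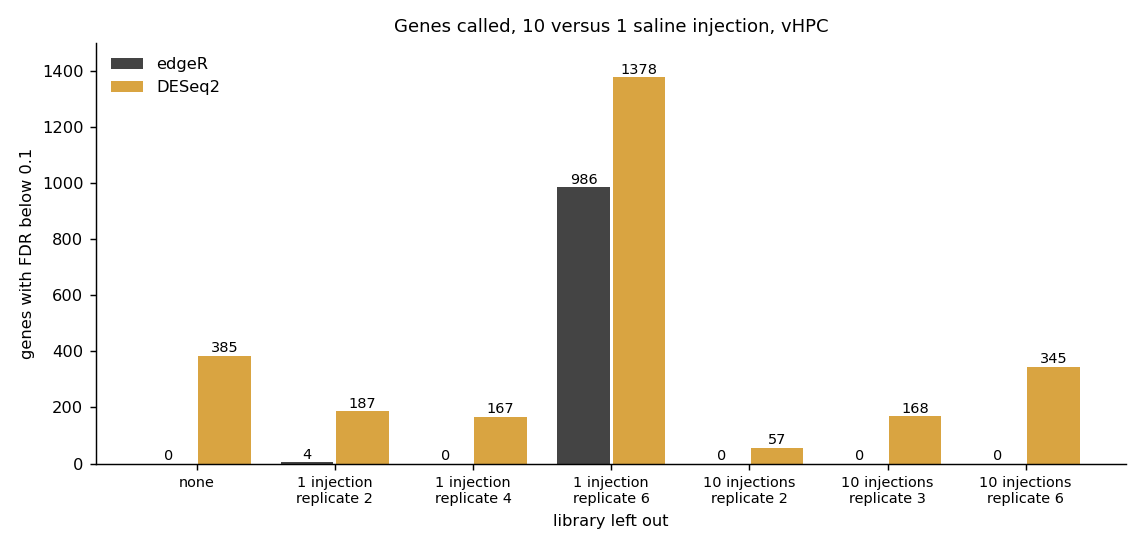
Genes with an FDR below 0.1 (bars from 0) for 10 versus 1 saline injection, by edgeR and by DESeq2, with no library or 1 library left out. The edgeR count is 0 with all 6 libraries and 986 without acute saline replicate 6, and the DESeq2 count runs from 57 to 1378.

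The 12 genes with the smallest p and a higher level after 10 injections included genes of calcium transport, dendritic spines and the actin skeleton. None of the 12 passed the FDR in edgeR (0.223 for each), and DESeq2 called all 12. *Orai2* (ENSMUSG00000039747; chromosome 5, 136176313 to 136199482), a subunit of store-operated calcium channels, had 156, 169.8 and 159 CPM after 1 injection and 244, 228 and 241 CPM after 10. Its log2 fold change was 0.56 (SE 0.08). *Slc8a2* (ENSMUSG00000030376; chromosome 7, 15863751 to 15894988), a sodium-calcium exchanger of neurons, had 305, 349 and 330.4 CPM after 1 injection and 560, 509 and 470.5 CPM after 10, a log2 fold change of 0.65 (SE 0.10). *Kalrn* (ENSMUSG00000061751; chromosome 16, 33789443 to 34393902), an exchange factor that shapes dendritic spines, had 488, 543 and 509 CPM after 1 injection and 892, 766 and 705 CPM after 10, a log2 fold change of 0.62 (SE 0.10). Lack of overlap between the groups was a condition for picking all 12 genes, and the DESeq2 calls rest on the same libraries.

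The actin regulators *Wipf3*, *Filip1* and *Cracdl* differed by 0.70 (SE 0.12), 0.81 (SE 0.12) and 0.93 (SE 0.16) on the log2 scale. *Wipf3*, which binds WASP proteins, had 380, 411 and 425 CPM after 1 injection and 769, 636 and 568 CPM after 10. *Iqsec2*, a postsynaptic exchange factor for Arf GTPases, had 182, 206 and 215 CPM after 1 injection and 333, 293 and 272 CPM after 10. Chronic replicate 2, the shallowest library, was the highest of the 6 in all of the 12 genes but *Filip1*. The transcription regulators *Zbtb18*, *Mrtfb* and *Zfp46* differed by 0.42 (SE 0.08), 0.54 (SE 0.10) and 0.65 (SE 0.11), and *Lmo7* and the anion transporter family member *Slc26a10* by 0.67 (SE 0.12) and 1.5 (SE 0.25). Without acute replicate 6, edgeR called all 12, which had been picked on libraries that this fit shares. Over the alternatives tried, the FDR of *Orai2* ran from 1.86e-05 (DESeq2) to 0.784 (edgeR without chronic replicate 2).

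The 12 genes with the smallest p and a lower level after 10 injections included a potassium channel subunit, a kinase subunit and secreted proteins. *Dpp10* (ENSMUSG00000036815; chromosome 1, 123249200 to 124773776), an auxiliary subunit of Kv4 potassium channels, had 59.4, 49.8 and 47 CPM after 1 injection and 22.9, 31.7 and 27.8 CPM after 10, a log2 fold change of -0.92 (SE 0.14). *Camk2d* (ENSMUSG00000053819; chromosome 3, 126389951 to 126638562), the delta subunit of calcium/calmodulin-dependent kinase II, had 55.3, 44.2 and 41.2 CPM after 1 injection and 27.3, 28.2 and 29.8 CPM after 10, a log2 fold change of -0.72 (SE 0.13). *Camk2b*, the beta subunit, was among the DESeq2 calls in the other direction with 1104, 1206 and 1228 CPM after 1 injection and 1730, 1531 and 1611 CPM after 10 (named after its values were seen). One subunit gene of the kinase was thus lower and another higher.

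*Sparc* (ENSMUSG00000018593; chromosome 11, 55285326 to 55314009), a secreted matrix-binding protein of glia and vessels, had 362, 452 and 297 CPM after 1 injection and 184, 194 and 232 CPM after 10, a log2 fold change of -0.87 (SE 0.15). *Spp1* (osteopontin), also a secreted matrix protein, had 12.7, 15.1 and 4.66 CPM after 1 injection and 1.41, 1.82 and 2.54 CPM after 10, a log2 fold change of -2.48 (SE 0.44), with acute replicate 6 closest to the chronic libraries. *Bcl2*, which blocks apoptosis, had 18.3, 16 and 15.7 CPM after 1 injection and 8.28, 10.6 and 7.45 CPM after 10, and *Serpine2*, a secreted protease inhibitor, had 154, 158 and 151 CPM after 1 injection and 110.4, 117 and 121 CPM after 10. *Hs6st2*, *Hsdl2*, *Eif5a2* and *Pygm*, the muscle-type glycogen phosphorylase also used by astrocytes, differed by -0.80, -0.70, -0.65 and -0.79. The remaining members of this set, *Tsc22d3* and *Sik1*, are described with the stress and activity genes. DESeq2 called all 12 with the 6 libraries, and edgeR called all 12 when acute replicate 6 was left out. These 12 had also been picked by p and lack of overlap on the same libraries.

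Further genes among the 47 that DESeq2 called with any 1 library left out are named here after their values were seen. *Ddn* (dendrin), a protein of dendrites, had 1070, 1127 and 1473 CPM after 1 injection and 2565, 2038 and 1741 CPM after 10. *Dagla*, which makes the endocannabinoid arachidonoylglycerol, had 177, 164 and 139 CPM after 1 injection and 243, 222 and 229 CPM after 10, and *Dgkz*, a diacylglycerol kinase, had 337, 332 and 428 CPM after 1 injection and 596, 551 and 515 CPM after 10. *Rimbp2*, a scaffold of presynaptic release sites, differed by 0.47 (SE 0.10). On the lower side, *Slc5a3*, the sodium-coupled myo-inositol transporter, had 41.5, 37.8 and 50.5 CPM after 1 injection and 18.1, 27 and 27.3 CPM after 10, and *Dpysl2* (CRMP2), a regulator of axon microtubules, had 177, 176 and 168 CPM after 1 injection and 137, 134 and 126 CPM after 10.

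**Figure D3:**
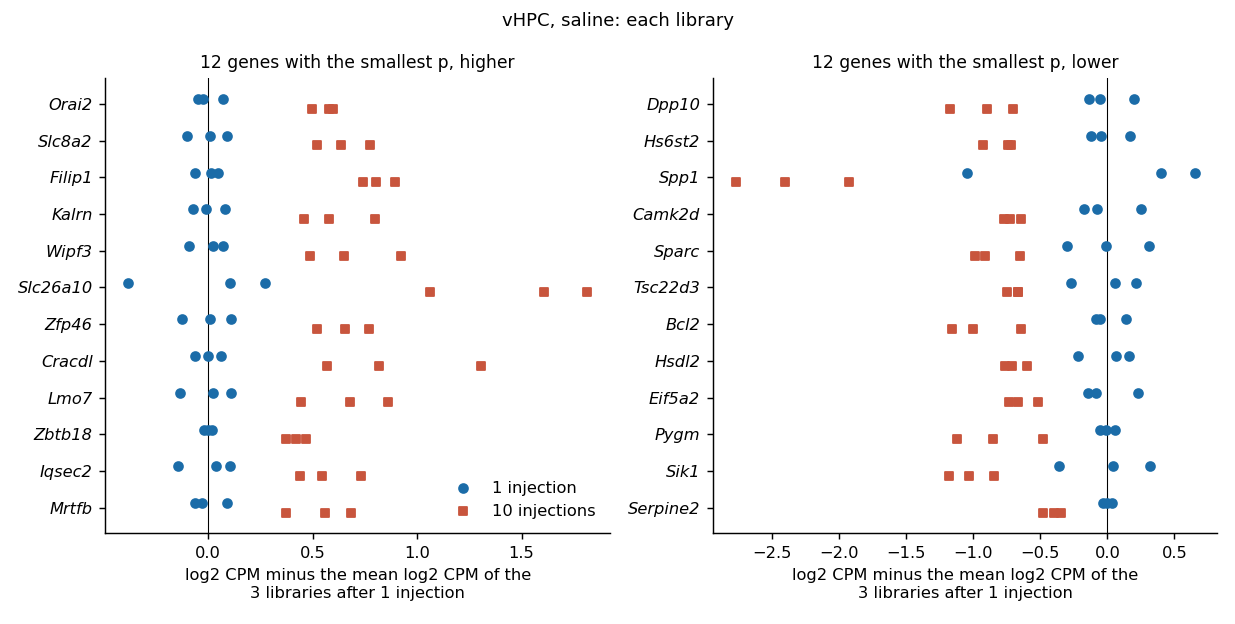
Level of the 12 higher and the 12 lower genes with the smallest edgeR p in each of the 6 vHPC saline libraries, as log2 CPM minus the mean of the 3 libraries after 1 injection. Circles are libraries after 1 injection and squares libraries after 10. The genes were picked for having no overlap between the groups.

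Genes of the excitatory synapse were higher after 10 injections more often than lower, beside an all-gene median of -0.01. Among 15 postsynaptic scaffold genes, 12 had a higher mean, 6 with an unadjusted edgeR p below 0.05 (5.30% of all genes) and 5 without overlap (8.61% of all genes), none was lower at that p, and the median was 0.22. *Dlg4* (PSD-95), the main scaffold of excitatory synapses, had 560.4, 573 and 726 CPM after 1 injection and 851, 731 and 777 CPM after 10. *Dlg3* (SAP102), a related scaffold that DESeq2 called higher, had 172, 169.7 and 202 CPM after 1 injection and 269, 227 and 222 CPM after 10. Of the 14 auxiliary genes of AMPA receptors, 11 had a higher mean and 4 passed the unadjusted p, all higher, beside 5.30% of all genes. *Shisa7* had 111, 116 and 138 CPM after 1 injection and 212, 178 and 156 CPM after 10 and *Cacng3*, one of the TARP subunits that carry AMPA receptors to synapses, had 35.5, 34.9 and 29.2 CPM after 1 injection and 63.7, 55.9 and 41 CPM after 10. *Cacng8* was the third DESeq2 call, beside 1.13% of all genes called higher.

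Of 17 ionotropic glutamate receptor genes, 11 had a higher and 6 a lower mean, the median was 0.07, and 5 higher and 2 lower members passed the unadjusted p, beside 5.30% and 5.75% of all genes. Their summed level, which the abundant members carry, was 3584, 3877 and 4193 CPM after 1 injection and 4968, 4508 and 4610 CPM after 10, with every chronic library above every acute one. *Gria1*, an AMPA receptor subunit, had 764, 838 and 968 CPM after 1 injection and 1241, 1083 and 1139 CPM after 10, and *Grin2a*, an NMDA receptor subunit, had 400.4, 416 and 386 CPM after 1 injection and 591, 511 and 465 CPM after 10. *Grin1* and *Grin2b* were also without overlap and higher, with log2 fold changes of 0.35 (SE 0.10) and 0.24 (SE 0.08), while *Gria4* and *Grin2d*, which are known from interneurons, were without overlap and lower, with -0.52 (SE 0.14) and -0.57 (SE 0.18). DESeq2 called *Gria1*, *Grin2a* and *Grin1* higher and *Gria4* lower, beside 1.13% and 0.823% of all genes. Of 8 genes for pore-forming calcium channel subunits, 6 had a higher mean, 5 of them without overlap, beside 8.61% of all genes. *Cacna1h*, a T-type channel, had 82.8, 97.6 and 101 CPM after 1 injection and 182, 134 and 131 CPM after 10, a log2 fold change of 0.67 (SE 0.14), and *Cacna1d* (L-type) and *Cacna1e* (R-type) differed by 0.47 (SE 0.10) and 0.42 (SE 0.11). DESeq2 called these 3 higher, beside 1.13% of all genes.

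Metabotropic glutamate receptor genes went both ways: *Grm2*, which is used by dentate granule neurons, had 24.9, 40.6 and 21.5 CPM after 1 injection and 79.2, 55.1 and 42.7 CPM after 10, and *Grm4* had 39, 19.9 and 17.5 CPM after 1 injection and 9.51, 9.11 and 13.5 CPM after 10. GABA-A receptor genes had a median of -0.07, and *Gabra3*, which DESeq2 called lower, differed by -0.68 (SE 0.22). In the fit without acute replicate 6, edgeR called 6 of the 15 scaffold genes, 3 of the 14 auxiliary genes and 3 of the 8 calcium channel genes, all higher, and 3 glutamate receptor genes higher and 1 lower, beside 2.28% of all genes higher and 2.84% lower. The same fit called larger shares of the choroid plexus and myelin lists (given with the tissue markers), and the part of that content in the synaptic counts was not tested. Without acute replicate 2, edgeR called none of the members of these 4 lists, beside only 0.021% of all genes in that fit. DESeq2 then called 2 auxiliary genes and 3 calcium channel genes higher, beside 118 of 19017 genes called higher. The dentate granule neuron genes were higher in the same libraries (summed levels given with the subfields), and their part in these differences was not tested.

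Chaperone genes of the cytosol and of the endoplasmic reticulum had lower means after 10 injections. Of 21 measured genes of the unfolded protein response (with 2 gene entries for *Ddit3*), all 21 had a lower mean, 10 passed the unadjusted p and 11 were without overlap, beside 5.75% and 8.32% of all genes. The median was -0.28, and the summed level was 2036, 1715 and 1945 CPM after 1 injection and 1548, 1524 and 1529 CPM after 10. *Hspa5* (BiP, ENSMUSG00000026864; chromosome 2, 34661982 to 34667559), the main chaperone of the endoplasmic reticulum, had 270.2, 199 and 282 CPM after 1 injection and 169.6, 164 and 160.3 CPM after 10, a log2 fold change of -0.60 (SE 0.13). Acute replicate 4 was the closest of the acute libraries to the chronic ones. *Pdia6*, *Dnajc3* and *Hsp90b1*, further chaperones of that compartment, differed by -0.41 (SE 0.10), -0.52 (SE 0.14) and -0.33 (SE 0.09). DESeq2 called these 4 genes lower, beside 0.823% of all genes.

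Of 19 heat shock chaperone genes, 17 had a lower mean and 8 passed the unadjusted p, all lower, beside 5.75% of all genes. *Hsp90aa1*, the inducible cytosolic HSP90, had 1214, 1039 and 1198 CPM after 1 injection and 824, 886 and 976 CPM after 10, and its cochaperone *Chordc1* had 65.3, 54 and 58.6 CPM after 1 injection and 45.3, 44.8 and 43 CPM after 10. DESeq2 called both. *Hspa1a* and *Hspa1b*, the strongly inducible HSP70 genes, overlapped between the groups, with log2 fold changes of -0.31 (SE 0.20) and -0.40 (SE 0.23). They are near-identical copies, and pairs that map to both were counted for each. After removal of the GC and length trend the medians of the 2 chaperone lists were -0.23 and -0.23.

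Glucocorticoid-responsive genes divided into a few that were lower and a larger number that overlapped or did not pass. Of 18 measured, 5 passed the unadjusted p, all lower and all without overlap, beside 5.75% and 8.32% of all genes, and the median was -0.09. *Tsc22d3* (GILZ, ENSMUSG00000031431; chromosome X, 139440277 to 139501408), a direct target of the glucocorticoid receptor, had 89.1, 63.8 and 80 CPM after 1 injection and 45.7, 48.4 and 48.5 CPM after 10, a log2 fold change of -0.71 (SE 0.13). *Plin4* (ENSMUSG00000002831; chromosome 17, 56407591 to 56416803), a lipid droplet coat protein, had 15.9, 26.5 and 11.1 CPM after 1 injection and 3.35, 7.95 and 4.12 CPM after 10, a log2 fold change of -1.79 (SE 0.38). DESeq2 called these 2 lower, beside 0.823% of all genes. *Sult1a1*, *Cdkn1a* and *Sgk1* differed by -0.82 (SE 0.21), -0.74 (SE 0.24) and -0.39 (SE 0.16). *Fkbp5*, another receptor target, overlapped with 61.1, 66.6 and 88.5 CPM after 1 injection and 81.8, 72.8 and 82.7 CPM after 10, as did *Mt2*, *Klf9* and *Per1*.

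The genes of the receptors themselves were measured as well. *Nr3c2* (ENSMUSG00000031618; chromosome 8, 77626070 to 77971641), the mineralocorticoid receptor, had 139, 143 and 161 CPM after 1 injection and 238, 199 and 209.5 CPM after 10, a log2 fold change of 0.55 (SE 0.10), and DESeq2 called it in all 6 fits with 1 library left out. *Nr3c1*, the glucocorticoid receptor, had 94.8, 86.9 and 69.7 CPM after 1 injection and 74.2, 81.8 and 64.5 CPM after 10, with overlap. Among the other 12 stress and neuropeptide genes tested, *Npy1r* had the smallest p, with a log2 fold change of 0.42 (SE 0.14), and *Crhr1*, the main receptor of corticotropin-releasing hormone, had 7.33, 9.23 and 10.3 CPM after 1 injection and 6.96, 7.62 and 6.97 CPM after 10. Without acute replicate 6, edgeR called *Nr3c2* higher and *Plin4* lower.

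Activity-response genes had 18 of 24 means lower after 10 injections, with a median of -0.16, which was 0.03 without acute replicate 6. At an unadjusted p below 0.05, 2 were lower and 1 higher, beside 5.75% and 5.30% of all genes. *Sik1* (ENSMUSG00000024042; chromosome 17, 32063224 to 32074778), a kinase gene induced by cAMP signalling, had 14.4, 10.9 and 17.4 CPM after 1 injection and 6.17, 7.79 and 6.82 CPM after 10, a log2 fold change of -1.04 (SE 0.21). *Fos* (ENSMUSG00000021250; chromosome 12, 85520664 to 85522837; named after its values were seen) had 20.4, 16.6 and 24.3 CPM after 1 injection and 4.58, 14.4 and 10.6 CPM after 10, a log2 fold change of -1.04 (SE 0.33), without overlap. *Bdnf* (brain-derived neurotrophic factor) lay the other way, with 29.5, 41.4 and 31.5 CPM after 1 injection and 54.3, 49.5 and 47.4 CPM after 10, a log2 fold change of 0.56 (SE 0.14). DESeq2 called these 3, 2 lower and 1 higher, beside 0.823% and 1.13% of all genes. *Arc*, *Egr1*, *Junb*, *Nr4a1* and *Npas4* overlapped, with log2 fold changes of -0.08, -0.18, -0.09, -0.06 and -0.53.

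**Figure D4:**
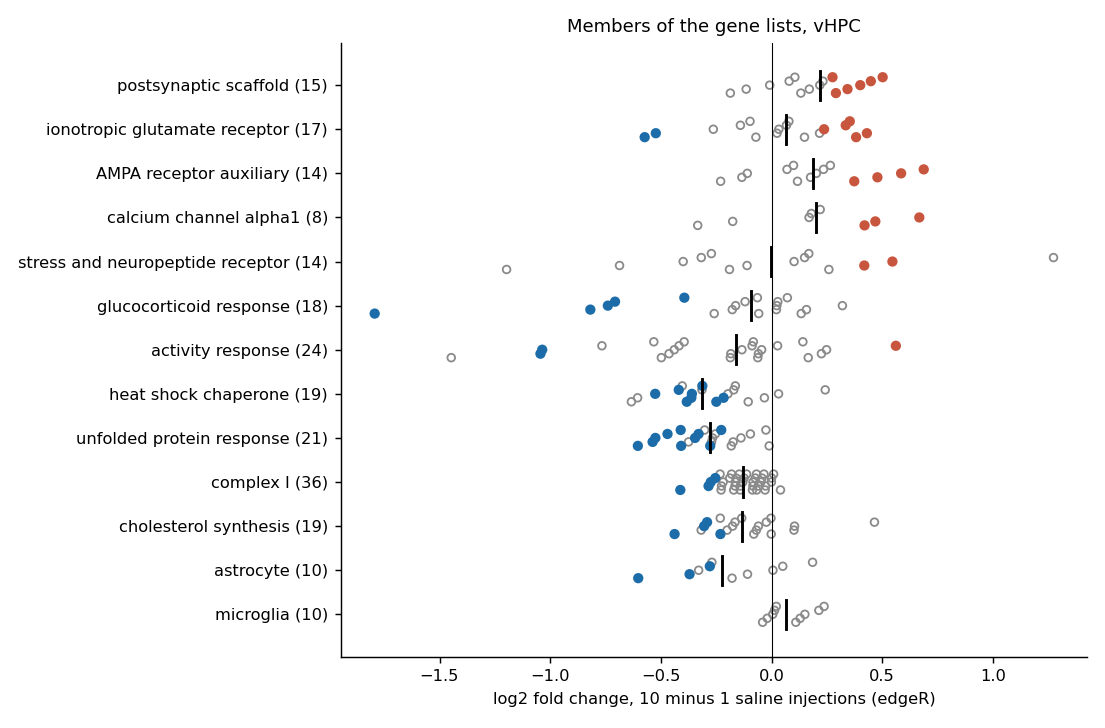
edgeR log2 fold change of 10 minus 1 saline injections for each member of 13 gene lists (members tested in brackets). Filled points have an unadjusted p below 0.05 (red higher, blue lower), open points do not, and black bars are list medians. No member passed an FDR of 0.1 in edgeR.

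The 8 GABAergic interneuron genes had a median of -0.27, with 3 higher and 5 lower means. At an unadjusted edgeR p below 0.05, 1 was higher and 2 were lower, beside 5.30% and 5.75% of all genes. *Npy* was higher, with log2 fold changes of 0.28 to 0.55 over the alternatives tried. *Pvalb* (parvalbumin), a calcium buffer of fast-spiking interneurons, had 69, 37 and 28.4 CPM after 1 injection and 21.7, 18.9 and 17.4 CPM after 10, a log2 fold change of -1.22 (SE 0.29). DESeq2 called it in all 6 fits with 1 library left out. Parvalbumin is also made by neurons of the thalamic reticular nucleus, and acute replicate 2, the library with the most thalamic RNA, was the highest. The part of thalamic content in the difference was not tested. *Gjb6* (connexin 30) of astrocytes had 54.7, 57.7 and 44.3 CPM after 1 injection and 42.2, 28 and 33.1 CPM after 10, and the astrocyte median was -0.22. The microglial median was 0.07. Among 36 complex I genes 33 had a lower mean, with a median of -0.13 that became -0.06 after removal of the GC and length trend. All 13 mitochondrially encoded genes had a lower mean (median -0.13), which became 0.06 after the same step. Cholesterol synthesis genes had a median of -0.13, and DESeq2 called *Cyp51* lower, with -0.44 (SE 0.09).

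All 5 red blood cell genes had lower levels after 10 injections, without overlap, beside 8.32% of all genes. They summed to 578, 1065 and 1620 CPM after 1 injection and 514, 479.8 and 377 CPM after 10. *Hbb-bs*, a beta-globin gene, had 142, 256 and 394 CPM after 1 injection and 120, 118 and 86.7 CPM after 10, a log2 fold change of -1.29 (SE 0.31). Both the alpha and the beta globin pairs are near-identical copies whose shared reads were counted for each. The 4 globin genes were the 4 edgeR calls made without acute replicate 2 (log2 fold changes -1.54 to -1.59, FDR 0.0620). Without acute replicate 6, the library with the most, the list's median was -0.87. In that fit edgeR called 4 of the 5 lower, beside 2.84% of all genes.

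The same contrast was set beside 3 other pairs of groups. In the dHPC of saline mice (4 of 6 mice in common with the vHPC) edgeR called 1 of 26167 genes and 2014 passed the unadjusted p, 3.83% of genes higher and 3.87% lower. The dHPC libraries do not keep the strand and were counted on the reverse strand, so their values rest on a part of the pairs, and more genes passed the count filter there, so these shares are of another set of genes. In the ventral striatum (VS) of saline mice (5 of 6 in common) it called 0 of 20107, with 1185 at the unadjusted p (3.22% higher, 2.68% lower) and a smallest FDR of 0.334. In the vHPC of the ethanol mice, which are other animals, it called 0 of 19985, with 1111 at the unadjusted p (2.72% higher, 2.84% lower) and a smallest FDR of 0.839. The tests of the difference itself called 0 of 20978 genes against VS, 0 of 26193 against dHPC and 0 of 20618 against the ethanol mice in edgeR (0% each), with 1869, 1892 and 2381 genes at an unadjusted p below 0.05. In edgeR and in DESeq2 these tests held no term for the mouse. Libraries of a mouse shared by both regions were thus treated as independent. DESeq2 called 128 (0.610%), 80 (0.305%) and 417 (2.02%). It gave no FDR to 3672, 6608 and 11595 genes of these tests, and the shares count those genes too.

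Several of the named genes were among these DESeq2 calls, although they had been picked on the same vHPC libraries, so the values are a description. *Mrtfb* was called in all 3 tests, with differences of 0.72, 0.49 and 0.53 on the log2 scale from VS, dHPC and the ethanol mice. *Kalrn* was also called in all 3 (0.82, 0.53 and 0.70), and *Dpp10* too (-0.72, -0.89 and -1.39). *Nr3c2* was called against VS (0.62) and the ethanol mice (0.85), *Hspa5* against the ethanol mice (-1.05) and *Camk2d* against the ethanol mice (-1.09).

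The other pairs are given for 4 genes of the stress and activity lists, chosen after their values were seen. *Plin4* differed by -1.18 (SE 0.34) in dHPC, -0.91 (SE 0.41) in VS and -0.71 (SE 0.22) in the ethanol vHPC. *Sik1* differed by -0.63 (SE 0.26), -0.65 (SE 0.20) and -0.56 (SE 0.23) in the same order, and *Fos* by -1.25 (SE 0.36), -1.26 (SE 0.61) and -0.58 (SE 0.52). *Tsc22d3* differed by -0.14 (SE 0.14), -0.40 (SE 0.15) and -0.68 (SE 0.12). None of these passed an FDR of 0.1 in its own edgeR fit. Activity-response means were lower in 21 of 24 genes in dHPC, 24 of 24 in VS and 22 of 24 in the ethanol vHPC, with 7, 9 and 11 at an unadjusted p below 0.05 in that direction, beside 3.87%, 2.68% and 2.84% of all genes and 2 of 24 in the vHPC saline pair. Glucocorticoid-responsive means were lower in 11, 17 and 18 of 18 genes, with 2, 3 and 10 at that p, against 5 in the vHPC saline pair. *Hbb-bs* differed by -1.17 (SE 0.31) in dHPC and by 0.63 (SE 0.21) in VS, and the difference between vHPC and VS was -1.91 (SE 0.43), which DESeq2 called and edgeR did not (FDR 0.407).

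**Figure D5:**
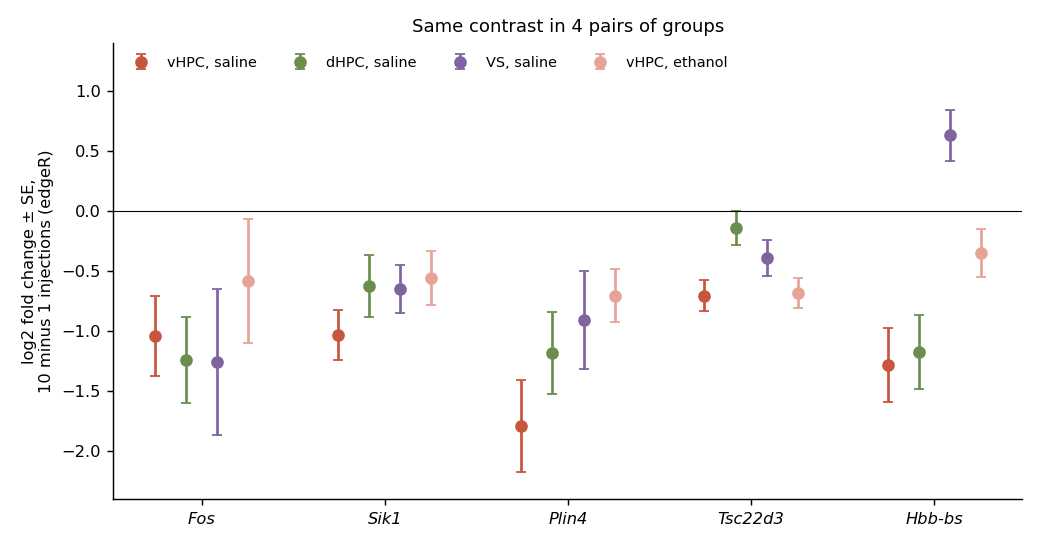
edgeR log2 fold change with its standard error (derived from the F statistic) for 10 minus 1 injections of 5 genes in 4 pairs of groups of 3 against 3 libraries (vHPC, dHPC and VS of saline mice, vHPC of ethanol mice). *Sik1*, *Plin4*, *Tsc22d3* and *Fos* lie below 0 in all 4 pairs and *Hbb-bs* lies above 0 in VS. The saline pairs share mice across regions.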

How the data were processed

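RNA-seq was made from cored tissue of single mice, and the deposited values are raw counts of read pairs per gene. According to the study's methods and the labels, the authors used Cutadapt 5.0 for trimming, STAR 2.7.10a for alignment to GRCm39 and featureCounts 2.0.6 for counting pairs on exons of Ensembl genes, taking the reverse strand and counting a pair for every place and gene it fits. Shared reads therefore raise near-identical copies together.

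Groups came from the labels. Genes that reached 5 counts in 2 or more libraries of a group (19695 of 56415) were tested with edgeR 4.0.16 (TMM, quasi-likelihood, Benjamini-Hochberg, FDR below 0.1) on the 6 vHPC saline libraries, and with interaction terms against VS, dHPC or ethanol mice. DESeq2 1.42.0, used by the authors, was an alternative (R 4.3.3). The methods were checked on counts simulated with the same variation for every gene and library. A limit on calls without a real difference was set there for edgeR only, not for DESeq2. Coordinates are GRCm39 from the deposited counts. The transcript table was not used.

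Named genes were the 12 higher and 12 lower with the smallest edgeR p among genes with no overlap of the groups, a mean of at least 10 counts and a regular symbol, which filled the places that the FDR rule left empty, plus members of gene lists (for choroid plexus, thalamic and dentate lists any member, for the others up to 2 with the smallest p, and more where singled out after their values were seen). The members and lists were chosen with earlier results of these data known.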

Additional observations from a re-analysis of the deposited data

How the results depend on the processing

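With all 6 libraries, the edgeR count for the saline comparison was 0 with DESeq2 size factors, with at least 10 counts in every sample, after removal of GC and length trends, with all 4 vHPC groups in a single fit, and among genes free of exons on the opposite strand. It was 457 with no low-count filter. Leaving out 1 library gave 0 to 986 edgeR calls, 986 without acute replicate 6, 4 without acute replicate 2 and 0 for each of the others. DESeq2 called 385 genes, 280 once GC and length trends were taken out and 403 with all 4 groups. Without acute replicates 2, 4 and 6 DESeq2 called 187, 167 and 1378, and without chronic replicates 2, 3 and 6 it called 57, 168 and 345. The DESeq2 fits with a library left out, with the GC trend or with all groups were chosen after seeing the data.

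The difference from VS had 128 calls by DESeq2, 705 with no filter and 0 to 130 with 1 library left out. The difference from dHPC had 80 by DESeq2 and 0 to 4, with 1 call without chronic replicate 6. The difference from ethanol mice had 417 by DESeq2, 868 with no filter and 0 to 434, and removal of the GC trend moved its all-gene median to 0.11. Calls over the members of all lists (among them genes labelled in the study's text or figures, which are not described) numbered 44 by DESeq2, 75 with no filter and 0 to 102 with 1 library left out. The lists held 538 genes, and the same counts over all genes were 385, 457 and 0 to 986. The highest of each of these ranges came without acute replicate 6. The causes were not tested.

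The replicate numbers name different mice in the saline groups, and deviations of same-numbered libraries correlated at -0.14 (number 2) and 0.19 (number 6), so the numbers share only a label there. The replicate block gave 0 calls for the saline comparison, and the block by mouse gave 0 for both region differences, as did the replicate block for the difference from ethanol mice. These blocks were fitted in edgeR only, so the DESeq2 calls of the region differences were not tested with a term for the mouse. The biological coefficient of variation was 0.185, and 3 mice a group and the shallower chronic libraries limit each fold change to the precision of its standard error.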
